A study of Gallus gallus with 4 samples.

Results

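Collagen genes and the genes of tendon and cartilage matrix were followed across 4 RNA sequencing libraries of whole chick (Gallus gallus) embryos. Genes were taken by symbol: every collagen chain gene, the matrilins, TNMD, ACAN, IBSP and SOX9, outside chromosome 16 and with at least 20 reads over the 4 libraries. The rule gave 43 of the 13081 genes in the table, 36 of them collagens. All genes with such a symbol in the table passed: IBSP, the one with the fewest reads, had 97 and COL28A1, the next, 264. The rule used names and total reads, not differences between libraries.

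Embryos were treated at Hamburger-Hamilton stage 8 and collected on day 6, to see what a nitric oxide donor does to gene expression under thalidomide. The control library came from embryos given the solvent DMSO. The thalidomide library came from embryos given 40 µg/ml thalidomide, a teratogenic drug that binds the ubiquitin ligase receptor cereblon. The spermine NONOate library came from embryos given 10 µM of this nitric oxide donor, and the combination library from embryos given both agents at these doses. Each condition has 1 library, so no difference has a replicate check and no test was run; the only p-values given are the authors' own. The labels name neither strain nor sex, nor the number of embryos behind a library.

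Collagens are trimeric proteins wound into a triple helix. Fibrillar collagens form the banded fibrils of skin, tendon, bone and cartilage, and the fibril-associated collagens with interrupted triple helices (FACIT) coat those fibrils. Type IV collagen makes the network of basement membranes, and type VI collagen makes the beaded filaments around cells. Cartilage adds aggrecan and the matrilins, under the control of the transcription factor SOX9. Tendon cells carry tenomodulin (TNMD), and mineralising bone carries bone sialoprotein (IBSP). In the day 6 chick embryo cartilage condenses in limb and axis, tendons form and mineralised bone is still scarce.

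The libraries held 62576258 to 79359076 reads in genes. Defining genes of liver, blood, heart, skeletal muscle, neuron, lens, cartilage and smooth muscle were detected in every library (1 or 2 genes for each tissue). Detection does not mean like levels. In control, thalidomide, spermine NONOate and combination, ALB of liver had 64.8, 12.9, 620 and 154 CPM. In the same order the lens genes CRYAA and ASL1 had 112, 11.4, 64.3 and 38.0, and 3514, 596, 1949 and 1332. MYH7 of heart had 15.9, 25.2, 14.3 and 17.9, and STMN2 of neurons 318, 236, 529 and 288. HBAA, an alpha globin gene of red cells, had 9298 CPM in control and 9441 with spermine NONOate, against 987 with thalidomide and 1924 in the combination. HBZ, the other red cell gene looked at, did not follow it. It had 2076 CPM in control, 2220 with thalidomide, 1334 with spermine NONOate and 2686 in the combination. Levels are normalised read counts (CPM, TMM scaling), which are not corrected for gene length, so a level is compared between libraries and not between genes. A gene was called higher or lower where its ratio was at least 2-fold, the higher library had at least 20 reads, and the 95% exact counting interval of the ratio excluded no change. Intervals cover counting error only. Long and short mRNAs moved apart in the libraries with thalidomide: 44 long mRNAs of unrelated function, such as HTT and DYNC1H1, had a median log2 ratio of 1.06 in thalidomide against control, and 27 short ones had a median of -0.55. In the combination against spermine NONOate the medians were 1.19 and -0.86. Most collagen mRNAs and that of ACAN are known to be long, while those of TNMD and IBSP are short. The part of this trend in the differences given here was not tested. Changes in a whole embryo also cannot separate fewer cells of a type from less RNA per cell.

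In thalidomide against control, TNMD and IBSP were lowest among the 43 genes, and COL15A1, a minor basement membrane collagen, was highest. TNMD was 10.9-fold lower, COL20A1 3.66-fold lower and COL15A1 4.15-fold higher. In all, 4 of the 43 genes were called higher (9.30%, against 9.22% of all 12138 genes with enough reads) and 6 lower (13.95%, against 7.23%). The share of higher genes was thus near that of the whole table. Of the 36 collagens alone, 3 were higher and 3 lower (8.33% each), both near the shares of all genes. The remaining lower genes were TNMD, IBSP and MATN3. As the genes were chosen with earlier results of these data known, the larger share of lower genes is a description only. The median of the 43 log2 ratios was 0.07, and that of the 12643 genes with at least 20 reads was -0.005. With libraries scaled to total counts, which moves the median log2 ratio of all genes by 0.20 here, by 0.22 in the combination against control and by 0.16 in the combination against spermine NONOate, 8 were higher and 5 lower. Without the 50 most abundant genes in the totals, 8 were higher and 6 lower. The whole table moved as well. Of all genes, 1119 were higher and 878 lower with TMM scaling, and 1674 and 560 with total counts. Without the 50 most abundant genes in the totals these counts were 1354 and 706.

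**Figure D1:**
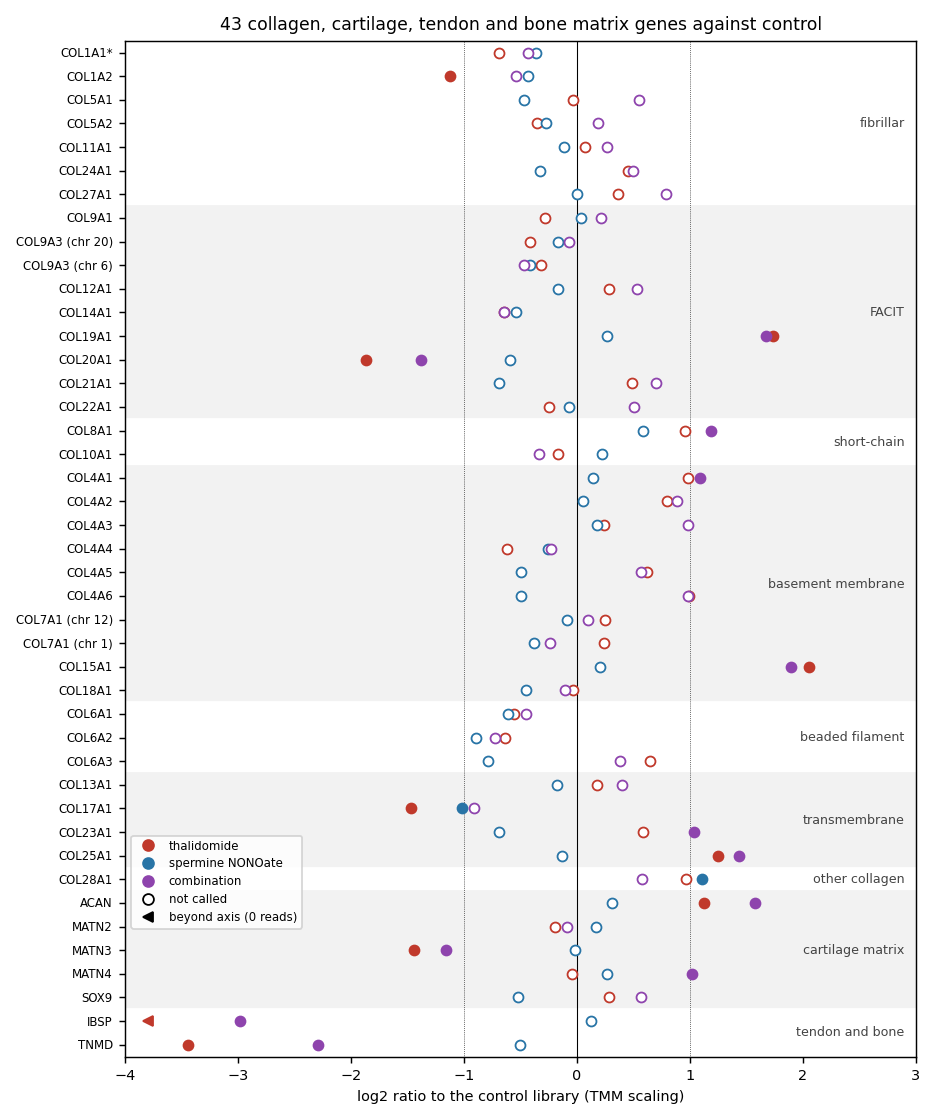
Log2 ratio of each of the 43 genes to the control library in the thalidomide (red), spermine NONOate (blue) and combination (purple) libraries, grouped by role. Filled points were called, open points were not, the arrow marks IBSP at 0 reads, the dotted lines mark 2-fold, and the asterisk marks the chromosome 7 gene whose symbol COL1A1 is in doubt. TNMD and IBSP lie far to the left in both libraries with thalidomide, and COL15A1 and COL19A1 to the right.

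Among the fibrillar collagens, COL1A2, a chain of type I collagen, had 3763 CPM in control, 1721 with thalidomide, 2784 with spermine NONOate and 2584 in the combination. It was highest in control, lowest with thalidomide, and the only one of the 7 fibrillar genes called in thalidomide against control (log2 -1.13, -1.14 to -1.12). Scaled to total counts the log2 ratio was -0.93, short of the rule. Of the reads in the genes of the table, COL1A2 alone made up 0.346% in control (exact binomial interval 0.344% to 0.347%) and 0.182% with thalidomide (0.181% to 0.183%). All 36 collagens together took 0.945% of such reads in control, 0.820% with thalidomide, 0.758% with spermine NONOate and 1.03% in the combination. With TMM scaling the order differs: their summed level was 10287 CPM in control, 7775 with thalidomide, 7884 with spermine NONOate and 9568 in the combination, so control and not the combination was highest.

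A chromosome 7 gene carries the symbol COL1A1 (ENSGALG00000002552). In the RefSeq table of assembly GRCg7b COL1A1 lies on chromosome 27, and COL3A1, the type III collagen gene, neighbours COL5A2 on chromosome 7, so the identity of this gene is in doubt. It had 960 CPM in control, 595 with thalidomide, 747 with spermine NONOate and 709 in the combination, the same order as COL1A2 for the highest and lowest library, and it was called in no comparison.

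Type V collagen sits inside type I fibrils and sets their width. COL5A2 had 857, 670, 708 and 972 CPM in control, thalidomide, spermine NONOate and combination, within a 2-fold range. COL5A1 had 427, 417, 309 and 625 CPM in the same order. It was 2.02-fold higher in the combination than with spermine NONOate (log2 1.02, 0.99 to 1.04), which fell short of the rule under upper quartile scaling (0.99). Of the fibrillar genes linked to cartilage and bone, COL11A1 had log2 ratios to control of 0.07, -0.12 and 0.27 with thalidomide, spermine NONOate and the combination. COL27A1 had 0.36, -0.004 and 0.79, and COL24A1 0.45, -0.33 and 0.49. None of these was called.

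The FACIT group of 9 genes held both directions. COL19A1, whose product lies at basement membrane zones, had 3.21 CPM in control, 10.7 with thalidomide, 3.86 with spermine NONOate and 10.3 in the combination. Both libraries with thalidomide lay above both without it. Its log2 ratio was 1.73 (1.52 to 1.95) in thalidomide against control and 1.41 (1.20 to 1.63) in the combination against spermine NONOate. COL20A1, known from the corneal epithelium of the chick embryo, went the other way, with 12.8, 3.50, 8.49 and 4.92 CPM in control, thalidomide, spermine NONOate and combination. Its log2 ratio was -1.87 (-2.08 to -1.67) with thalidomide and -1.38 (-1.56 to -1.21) in the combination, both against control. Against spermine NONOate the combination had a log2 ratio of -0.79, which was not called.

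COL12A1 and COL14A1 coat fibrils in tendon and other dense tissue. COL12A1 had 477 CPM in control, 581 with thalidomide, 424 with spermine NONOate and 688 in the combination. COL14A1 had 443, 282, 305 and 283 CPM, so that each treated library lay below control by a log2 ratio between -0.65 and -0.54. COL21A1 had 7.74, 10.8, 4.79 and 12.6 CPM and was called only in the combination against spermine NONOate (log2 1.40, 1.21 to 1.59). The cartilage chains COL9A1 and COL9A3 of chromosome 20 stayed within log2 -0.42 to 0.21 of control. A chromosome 6 gene that also carries the symbol COL9A3, which RefSeq does not place there, stayed within -0.47 to -0.32, and COL22A1 within -0.25 to 0.51.

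Basement membrane collagens lay mostly above 0 in both thalidomide comparisons. Of 10 genes, 8 lay above 0 in thalidomide against control (median log2 0.43) and 10 of 10 in the combination against spermine NONOate (median 0.82). Their summed level was 1003 CPM in control, 1451 with thalidomide, 821 with spermine NONOate and 1410 in the combination. These medians lie below those of the 44 long mRNAs of other functions in the same comparisons.

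COL4A1 and COL4A2 encode the chains of the ubiquitous type IV network. COL4A1 had 139 CPM in control, 274 with thalidomide, 152 with spermine NONOate and 295 in the combination, and COL4A2 had 98.8, 171, 102 and 182. In both genes the libraries with thalidomide lay above those without. COL4A1 was called in the combination against control (log2 1.09, 1.05 to 1.12). Its 0.98 in thalidomide against control passed the 2-fold rule only under total counts (1.18) or without the most abundant genes (1.07). In that comparison the same held for COL4A6 (1.19 and 1.08), COL8A1 (1.15 and 1.04) and COL28A1 (1.17 and 1.06). COL4A2 was called in no comparison.

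COL4A5 and COL4A6 encode chains of specialised basement membranes, such as those of kidney and smooth muscle. COL4A5 had 183, 282, 130 and 270 CPM in control, thalidomide, spermine NONOate and combination, and COL4A6 had 102, 203, 72.1 and 201. Both were lowest with spermine NONOate and about equal in the pair of thalidomide libraries. Beside them MYH11, the smooth muscle myosin gene, had 372, 741, 53.4 and 408 CPM, also lowest with spermine NONOate and highest with thalidomide, and its part in the COL4A5 and COL4A6 differences was not tested. In the combination against spermine NONOate COL4A6 was 2.79-fold higher (log2 1.48, 1.43 to 1.53) and COL4A5 2.08-fold higher (1.06, 1.02 to 1.10). COL4A3 and COL4A4, the other pair of specialised chains, were called in no comparison, with log2 ratios to control of 0.24 and -0.62 with thalidomide.

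COL15A1 encodes a collagen of the basement membrane zones of muscle and capillaries that also carries glycosaminoglycan chains. It had 7.60 CPM in control, 31.6 with thalidomide, 8.72 with spermine NONOate and 28.3 in the combination. The libraries with thalidomide lay far above those without, and those of each kind lay close together. Its log2 ratio was 2.05 (1.92 to 2.19) in thalidomide against control, 1.90 in the combination against control and 1.70 (1.56 to 1.84) in the combination against spermine NONOate. COL18A1, the related gene that gives rise to endostatin, had 315, 308, 230 and 294 CPM and was not called. Of the genes labelled COL7A1, the anchoring fibril collagen, the one on chromosome 12 had 17.5, 20.8, 16.5 and 18.8 CPM and the one on chromosome 1, where RefSeq does not place COL7A1, had 129, 153, 99.1 and 110. Neither was called.

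The chains of type VI collagen did not move together. COL6A1 had 423 CPM in control, 287 with thalidomide, 277 with spermine NONOate and 309 in the combination, and COL6A2 had 422, 271, 226 and 255. COL6A3, whose mRNA is far longer, had 181, 284, 105 and 236. COL6A1 and COL6A2 were highest in control, whereas COL6A3 was highest with thalidomide and lowest with spermine NONOate. COL6A3 alone was called, in the combination against spermine NONOate (log2 1.17, 1.13 to 1.21).

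The ratio of reads between chains of 1 type needs no scaling between libraries. COL6A3 had 0.429 reads for each COL6A1 read in control and 0.991 with thalidomide, a log2 difference of 1.21 ± 0.04 (95% counting half-width, normal approximation). In the combination the difference from control was 0.84 ± 0.04, and with spermine NONOate -0.18 ± 0.05. COL4A1 and COL4A2 stayed closer, with 1.40 COL4A1 reads for each COL4A2 read in control, 1.60 with thalidomide, 1.49 with spermine NONOate and 1.62 in the combination. COL4A5 had 1.80 reads for each COL4A6 read in control and with spermine NONOate, and 1.39 and 1.34 with thalidomide and the combination. COL4A3 rests on 133 to 302 reads, and its ratio to COL4A4 differed from control by 0.85 ± 0.37 with thalidomide, 0.43 ± 0.38 with spermine NONOate and 1.22 ± 0.33 in the combination. COL6A3 to COL6A2 differed by 1.29 ± 0.04, 0.11 ± 0.05 and 1.11 ± 0.04. COL5A1 had 0.499 reads for each COL5A2 read in control, 0.623 with thalidomide, 0.437 with spermine NONOate and 0.643 in the combination.

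**Figure D2:**
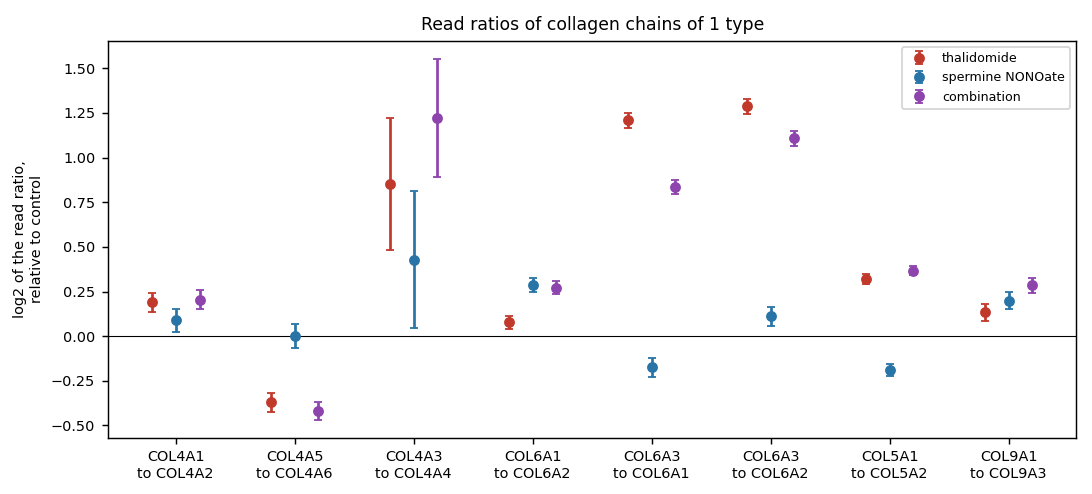
Log2 of the read ratio between the chains of 1 collagen type in each treated library, relative to the same ratio in control; bars are 95% counting half-widths. COL6A3 against COL6A1 (1.21 and 0.84) or COL6A2 (1.29 and 1.11) and COL4A3 against COL4A4 (0.85 and 1.22, with wide bars) stand high with thalidomide and in the combination, while the other pairs shown stay between -0.42 and 0.37.

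Transmembrane collagens differed from each other. COL17A1, a hemidesmosome protein that anchors the epidermis, had 152 CPM in control, 54.8 with thalidomide, 74.8 with spermine NONOate and 80.4 in the combination, with control above every treated library. Its log2 ratio was -1.47 (-1.52 to -1.42) with thalidomide and -1.02 (-1.07 to -0.97) with spermine NONOate. The latter lost its call under total counts (-0.95), upper quartile scaling (-0.97) and totals without the most abundant genes (-0.96). COL25A1, made by neurons, had 6.97, 16.6, 6.35 and 18.9 CPM in control, thalidomide, spermine NONOate and combination. It was higher by log2 1.25 (1.10 to 1.41) in thalidomide against control and by 1.57 (1.41 to 1.74) in the combination against spermine NONOate. COL23A1 had 12.03, 18.0, 7.46 and 24.6 CPM, with log2 ratios of 1.03 (0.92 to 1.15) in the combination against control and 1.72 (1.57 to 1.87) against spermine NONOate. COL13A1, a collagen of the neuromuscular junction, stayed within log2 -0.17 to 0.40 of control.

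Of the short-chain collagens, COL8A1, known from the endothelial side of the cornea and from vessels, had 18.5 CPM in control, 35.7 with thalidomide, 27.7 with spermine NONOate and 42.1 in the combination. It was called in the combination against control (log2 1.19, 1.10 to 1.28). COL10A1, the collagen of hypertrophic cartilage, had 2.98, 2.65, 3.47 and 2.36 CPM and was not called. COL28A1 rests on few reads, 42 in control, 80 with thalidomide, 75 with spermine NONOate and 67 in the combination, and was called in spermine NONOate against control (log2 1.11, 0.55 to 1.69).

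**Figure D3:**
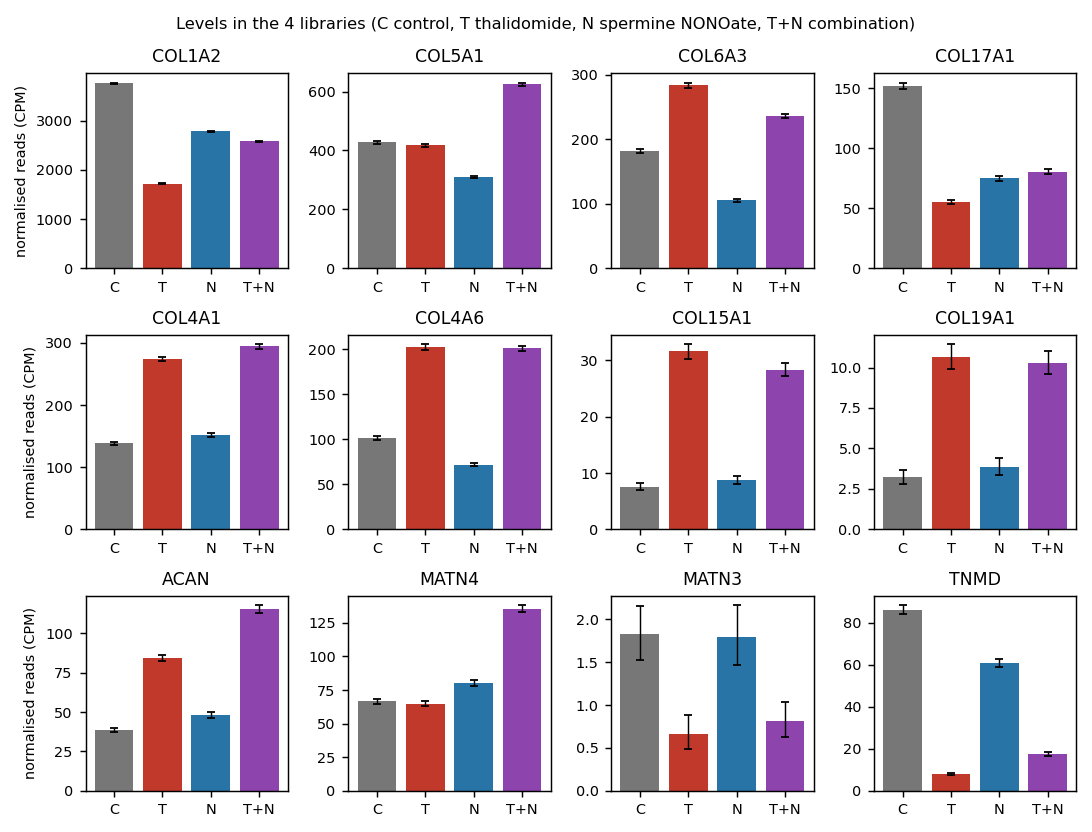
Normalised read counts (CPM) of 12 of the genes in the control (C), thalidomide (T), spermine NONOate (N) and combination (T+N) libraries; bars start at 0 and error bars are 95% exact Poisson counting intervals. COL15A1, COL19A1, COL4A1 and ACAN are high in both libraries with thalidomide, and TNMD and MATN3 are low in both.

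Cartilage genes did not share a direction. ACAN, the large aggregating proteoglycan that gives cartilage its resistance to compression, had 38.7 CPM in control, 84.4 with thalidomide, 48.1 with spermine NONOate and 116 in the combination. Both libraries with thalidomide lay above both without it, by log2 1.13 (1.06 to 1.19) against control and 1.26 (1.20 to 1.33) against spermine NONOate. SOX9 had 60.7, 74.0, 42.1 and 89.7 CPM and was called only in the combination against spermine NONOate (log2 1.09, 1.02 to 1.16).

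The matrilins, adaptor proteins that link matrix fibrils, differed as well. MATN3, which is found mainly in cartilage, had 133 reads in control, 47 with thalidomide, 108 with spermine NONOate and 63 in the combination. Its log2 ratio was -1.44 (-1.97 to -0.96) in thalidomide against control and -1.14 (-1.62 to -0.68) in the combination against spermine NONOate. Scaled to total counts, the latter (-0.98) and the combination against control (-0.94) fell short of the rule. MATN4 had 66.8, 64.7, 80.4 and 136 CPM in control, thalidomide, spermine NONOate and combination, so that the combination stood above the other libraries. It was called in the combination against control (1.02, 0.97 to 1.07) and against thalidomide (1.07, 1.02 to 1.12). MATN2, which is not restricted to cartilage, had 23.6, 20.7, 26.5 and 22.1 CPM and was not called. LECT1, which encodes chondromodulin and marks cartilage, had 260, 287, 225 and 253 CPM and did not follow ACAN, MATN3 or MATN4.

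TNMD, a membrane glycoprotein of tendon cells that is related to chondromodulin, had 86.3 CPM in control, 7.94 with thalidomide, 60.7 with spermine NONOate and 17.6 in the combination. Both libraries with thalidomide lay far below both without it, and the combination lay between. The log2 ratio was -3.44 (-3.57 to -3.32) in thalidomide against control, -2.30 (-2.38 to -2.21) in the combination against control and -1.79 (-1.88 to -1.70) in the combination against spermine NONOate. Against thalidomide alone the combination was 2.21-fold higher (1.15, 1.00 to 1.29). Beside it, MYOD1, the regulator that marks skeletal muscle precursors, had 42.9, 15.2, 32.7 and 22.97 CPM in the same order, and its part in the TNMD difference was not tested.

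IBSP was near the limit of detection, with 48 reads in control, 0 with thalidomide, 43 with spermine NONOate and 6 in the combination. Against a floor of 3 reads in the thalidomide library, it was at least 15.5-fold lower with thalidomide than in control. That bound leaves out the counting error of the control reads, and the exact interval of the ratio ends at log2 -3.599. The combination against control gave a log2 ratio of -2.99 (-4.61 to -1.86), and against spermine NONOate -3.11 (-4.73 to -1.97). With 100 reads needed these calls cannot be made.

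The combination against spermine NONOate asks for the thalidomide difference a second time and shares no library with thalidomide against control. In it 11 of the 43 genes were called higher (25.6%, against 9.84% of all genes) and 3 lower (6.98%, against 6.03%), with a median log2 ratio of 0.46. The 11 were COL4A5, COL4A6, COL5A1, COL6A3, COL15A1, COL19A1, COL21A1, COL23A1, COL25A1, ACAN and SOX9. The 3 lower ones were TNMD, IBSP and MATN3. Of the 36 collagens alone, 9 were higher (25.0%) and none was lower. Of the 44 long mRNAs of other functions, 65.9% were called higher in this comparison and 54.5% in thalidomide against control, with none lower in either. Across both comparisons 31 of 43 genes kept their sign (72.1%), close to the 75.4% of all genes. COL15A1, COL19A1, COL25A1 and ACAN were called higher in both (4 genes, where 4.79% of all genes were), and TNMD, IBSP and MATN3 lower in both (3 genes, where 2.12% were; MATN3 not under total counts). Less the median of the long mRNAs of other functions, no gene of the 43 was called higher in either comparison, or in the combination against control. The subtraction of that median lowers every gene of the table alike, and the share of all genes then called is not given here. Set against that median, COL15A1 was at 0.99 in thalidomide against control and 0.51 in the combination against spermine NONOate. In the same order COL19A1 was at 0.67 and 0.22, COL25A1 at 0.19 and 0.38, and ACAN at 0.06 and 0.07. TNMD, IBSP and MATN3 lie below the median of the short mRNAs in both. The 27 short mRNAs ranged from -1.10 to -0.004 in the first comparison, with 3 called lower (11.1%). In the second they ranged from -1.49 to -0.29, with 8 called lower (29.6%), and MATN3 at -1.14 lies inside that range. The part of mRNA length in these differences was not tested.

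**Figure D4:**
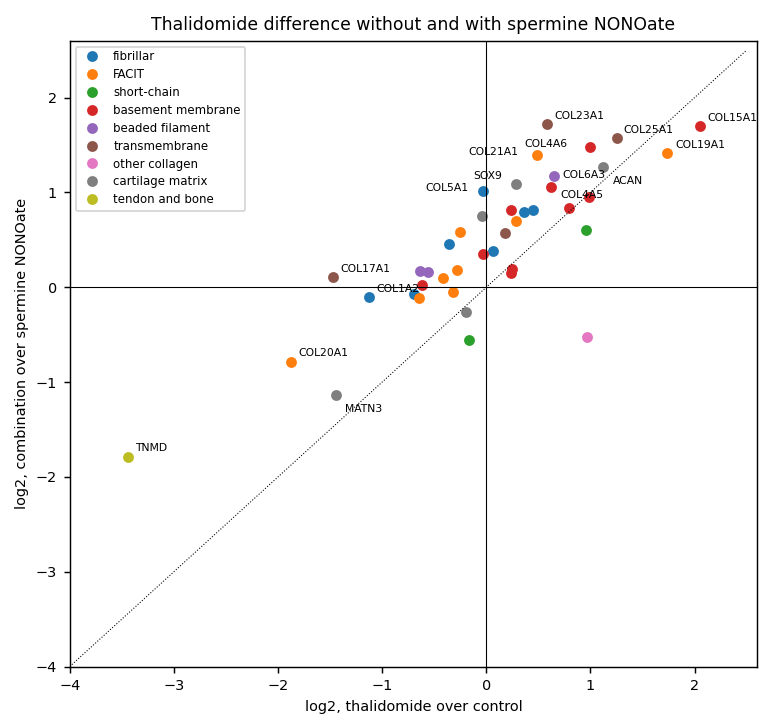
Log2 ratio of thalidomide over control (x axis) against that of the combination over spermine NONOate (y axis) for the 43 genes without IBSP, coloured by role; the dotted line marks equal values and genes called in either comparison are named. TNMD lies at -3.44 and -1.79, COL15A1 at 2.05 and 1.70, and most points lie above the dotted line.

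Few of these genes passed the rule in spermine NONOate against control. The comparison had 1 gene higher (2.33%, against 4.33% of all genes) and 1 lower (2.33%, against 1.33%), COL28A1 and COL17A1. Smaller differences were mostly downward: 30 of the 43 genes lay below 0, where 6998 of all 12643 genes did. The median log2 ratio was -0.17, against -0.04 for all genes. The 44 long mRNAs of other functions had a median of -0.23 here, with 38 below 0. The 27 short ones had a median of 0.03, with 12 below 0. The part of mRNA length in these differences was not tested. All 7 fibrillar genes lay below 0, from -0.47 for COL5A1 to -0.004 for COL27A1. The type VI chains were lower still, at -0.61 for COL6A1, -0.90 for COL6A2 and -0.79 for COL6A3, though short of 2-fold.

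The combination against thalidomide compares 1 library with and 1 library without the nitric oxide donor, where the drug was also given. TNMD and MATN4 were called higher (4.65%, against 3.74% of all genes) and none was called lower (0 of 43, against 1.26%). Here all 7 fibrillar genes lay above 0, from 0.04 for COL24A1 to 0.59 for COL1A2. Type VI chains lay between -0.26 and 0.11. The median log2 ratio of the 43 genes was 0.22. Spermine NONOate against control and the combination against thalidomide share no library. Between them 26 of the 43 genes had opposite signs, where 51.3% of all genes did, and no gene was called in the same direction in both (1.54% of all genes were called higher in both and 0.103% lower).

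The combination against control had 8 genes higher (18.6%, against 10.1% of all genes) and 4 lower (9.30%, against 4.16%), with a median of 0.38. Scaled to total counts 12 were higher and 3 lower, and without the 50 most abundant genes 11 and 4. The whole table moved as well. Of all genes, 1227 were higher and 506 lower with TMM scaling, and 1826 and 255 with total counts. Without the 50 most abundant genes these counts were 1535 and 345. The higher genes were COL4A1, COL8A1, COL15A1, COL19A1, COL23A1, COL25A1, ACAN and MATN4, and the lower ones TNMD, IBSP, MATN3 and COL20A1. Of the 36 collagens alone, 6 were higher (16.7%) and 1 lower (2.78%). Of the 44 long mRNAs of other functions, 38.6% were higher and none lower. This comparison shares its control library with thalidomide against control and its combination library with the comparisons above.

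The authors' deposited table gives an unadjusted p-value for each comparison of 1 library with 1 library. The shares of all genes in this paragraph cover every gene with a p-value, with no minimum of reads. Each of the 43 genes had at least 97 reads over the 4 libraries, so the sets are unlike in depth. In thalidomide against control 6 of the 43 genes had p under 0.05 (13.95%, against 4.97% of all genes). Of the 10 genes called there, COL1A2 (p = 0.271), COL25A1 (0.114), ACAN (0.0557) and MATN3 (0.191) in the authors' deposited table did not pass. In spermine NONOate against control 4 passed (9.30%, against 4.53%), which were COL17A1 and the chains COL6A1, COL6A2 and COL6A3. Between the combination and control 7 passed (16.3%, against 4.98%), and in the combination against spermine NONOate 6 (13.95%, against 4.79%). Of the genes called in the combination against control, COL8A1, COL20A1, COL23A1, MATN3 and MATN4 did not pass. Among those called in the combination against spermine NONOate, COL4A5, COL5A1, COL6A3, COL19A1, COL21A1, ACAN, SOX9 and MATN3 did not pass. In the combination against thalidomide 5 passed (11.6%, against 4.54%), which were TNMD, MATN4, COL1A2, COL5A1 and COL5A2; the other 4 fibrillar genes did not, with p from 0.214 to 0.904 in the authors' deposited table.

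Genes that build, bind or cut these matrices were listed by role. Of 23 genes for collagen modification, folding and crosslinking, 3 were lower (13.04%, against 7.23% of all genes) and none higher (against 9.22%) in thalidomide against control, with a median log2 ratio of -0.29. By contrast, 2 were higher in the combination than with spermine NONOate (8.70%, against 9.84% of all genes) and none lower (against 6.03%), and the median was 0.11, of opposite sign. P4HA3, a prolyl hydroxylase subunit, had 64.2 CPM in control, 18.8 with thalidomide, 52.3 with spermine NONOate and 27.5 in the combination (log2 -1.77 with thalidomide). PPIB, a cyclophilin that helps fold procollagen, had 783, 335, 671 and 475 CPM (-1.22). GLT25D2, a collagen galactosyltransferase, had 35.7, 16.8, 30.2 and 37.0 CPM (-1.08), and was called higher again in the combination against thalidomide (1.14). ADAMTS14, which trims procollagen, was higher in the combination than with spermine NONOate (1.12).

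Of 16 further proteoglycans and matrix proteins of cartilage and tendon, 4 were lower (25.0%, against 7.23% of all genes) and none higher (against 9.22%) with thalidomide than in control (median -0.46). Of the same 16 genes, 2 were lower (12.5%, against 6.03% of all genes) and 1 higher (6.25%, against 9.84%) in the combination than with spermine NONOate (median -0.13). ASPN, a small leucine-rich protein that binds collagen, had 32.1 CPM in control, 7.65 with thalidomide, 40.1 with spermine NONOate and 11.6 in the combination, which set both libraries with thalidomide below both without. EPYC, a small leucine-rich proteoglycan of growing cartilage, had 17.7, 4.97, 19.99 and 9.24 CPM, again lower in both. MGP, an inhibitor of calcification, had 13.1, 5.24, 12.1 and 10.9 CPM, lower with thalidomide alone. CHADL, related to chondroadherin, was higher in the combination than in each of the other libraries, with 3.94 CPM against 1.26 in control.

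Of 11 regulators of cartilage and tendon, 4 were higher (36.4%, against 9.22% of all genes) and 1 lower (9.09%, against 7.23%) with thalidomide than in control (median 0.08). Between the combination and spermine NONOate 5 were higher in the former (45.5%, against 9.84% of all genes) and none lower (against 6.03%), with a median of 0.76. Of the 11 genes, 5 lay below 0 in the first of these comparisons and 3 in the second. Of the 44 long mRNAs of other functions, 54.5% were called higher in the first and 65.9% in the second. The part of mRNA length was not tested. FGFR3, a receptor that restrains growth of cartilage, had 44.6, 93.7, 38.9 and 123 CPM in control, thalidomide, spermine NONOate and combination. SOX6, a partner of SOX9, had 3.06, 8.16, 2.68 and 9.36 CPM, PTH1R, the receptor for parathyroid hormone-related protein, 2.48, 5.80, 2.28 and 7.95, and TRPS1, a zinc finger repressor of chondrocyte genes, 23.01, 54.9, 19.5 and 61.3. In all of these both libraries with thalidomide lay above both without. EGR1, an early response factor that also acts in tendon, was the one called lower in thalidomide against control (log2 -1.15). PTHLH, the gene of parathyroid hormone-related protein, had -0.91 there and was called lower in the combination against control (-1.09). EGR1 and PTHLH are named here after their values were seen.

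Of 6 osteoblast genes 1 was called higher (16.7%) and none lower with thalidomide, with spermine NONOate and in the combination, each against control. Of all genes 9.22%, 4.33% and 10.1% were higher and 7.23%, 1.33% and 4.16% lower. The higher gene was SPP1, which encodes osteopontin, with 5.79 CPM in control, 14.5 with thalidomide, 25.1 with spermine NONOate and 24.9 in the combination. The list medians were -0.15, -0.19 and 0.41, with 3, 4 and 2 of the 6 genes below 0. DMP1 passed the rule only in the combination against thalidomide, on 36 against 15 reads (1 of 6 genes higher, against 3.74% of all genes). Of 15 matrix proteases and inhibitors 2 were lower (13.3%, against 7.23% of all genes) and none higher (against 9.22%) with thalidomide than in control. MMP13, a collagenase of hypertrophic cartilage and bone, had 169 reads in control, 57 with thalidomide, 50 with spermine NONOate and 28 in the combination, so that each treated library was lower than control. In the combination against spermine NONOate 2 of the 15 were higher (13.3%, against 9.84% of all genes) and 2 lower (13.3%, against 6.03%). ADAMTS20 and the aggrecanase gene ADAMTS5 were the higher ones (log2 1.5003 and 1.27), and MMP13 (-1.19) and MMP1 (-1.58) the lower ones. MMP1 rests on 8 to 40 reads, and was lower with thalidomide and higher with spermine NONOate than in control. Of the collagen receptor genes DDR2, ITGA11 and ITGB1, none was called in any comparison.

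**Figure D5:**
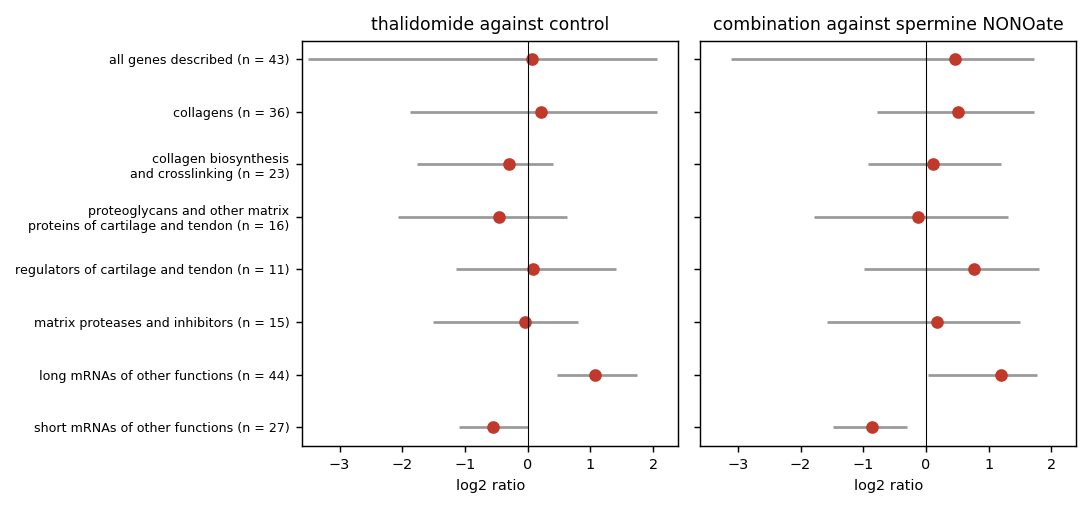
Median (point) and range (line) of log2 ratios for the 43 genes, their 36 collagens and lists of related and unrelated genes, in thalidomide against control and in the combination against spermine NONOate, which share no library; the line of the 43 genes is cut at the left edge in the first panel, where IBSP has 0 reads. Long mRNAs of other functions have medians of 1.06 and 1.19 and short ones -0.55 and -0.86, outside those of the other groups plotted.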

How the data were processed

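Per the file headers, the table holds deposited raw counts of reads for each gene in 4 libraries. Beside them stand log2 fold changes and unadjusted p-values computed by the authors for 5 comparisons. The gene models are those of Ensembl release 75, per the file headers. TopHat2 2.0.8, build galGal4 and DESeq are named in the submitters' processing notes. No source used here names the counting tool or says whether strand was used, so overlapping or antisense genes and near-identical copies are uncertain. The table used covers chromosomes 1 to 21. COL2A1, COL9A2 and MATN1 are not analysed here.

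Counts were scaled with TMM (edgeR 4.0.16, R 4.3.3). Log2 ratios had 0.5 reads added. Ratio intervals are 95% conditional-binomial (Clopper-Pearson, scipy 1.17.1); reads are not independent molecules. A library at 0 is given against a floor of 3 counts. The calling rule was tested on simulated Poisson counts. Values are printed for genes called in any comparison, for the non-collagen genes, for the 2 genes of each role with most reads, and for up to 4 called genes per related list. COL1A1, COL9A3 and COL7A1 labels were checked by chromosome in RefSeq (GRCg7b); 40 of 43 genes matched. The genes and lists were chosen with earlier results of these data known, and the lists of long and short mRNAs were chosen after values had been seen. Other scalings, including DESeq2 1.42.0 size factors, and other thresholds were tried.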

Additional observations from a re-analysis of the deposited data

Results flagged for a closer look

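For 3 genes the libraries with and without an agent differed in opposite directions in the absence and presence of the other agent. Each difference was at least 0.5 on the log2 scale, with a counting interval that excludes 0. The change between these differences was not tested, since each condition has 1 library. The share of all genes that meet this rule is not given here, so the count of 3 is a description only. Signs alone were opposite in 12 of the 43 genes for thalidomide, where 24.6% of all genes had opposite signs. For spermine NONOate they were opposite in 26, against 51.3% of all genes. COL17A1 had a log2 ratio of -1.02 in spermine NONOate against control and 0.55 in the combination against thalidomide. TNMD had -0.51 and 1.15 in the same comparisons. COL28A1 had 0.97 in thalidomide against control and -0.53 in the combination against spermine NONOate, on 42 to 80 reads per library. The -0.51 of TNMD and the -0.53 of COL28A1 lie close to the 0.5 limit.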

How the results depend on the processing

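No paired analysis was possible because each condition has 1 library. The planned removal of a trend with protein length was not run, as no protein table was used here. Of 40 calls of the 43 genes over the 5 comparisons, 35 held under all 4 other scalings. With a 1.5-fold threshold 21 genes were called in thalidomide against control (11 higher, 10 lower) and 9 in spermine NONOate against control (2 and 7). In the combination 20 were called against control (13 higher, 7 lower), 5 against thalidomide (5 and 0) and 23 against spermine NONOate (19 and 4). At 3-fold the called genes numbered 5, 0, 4, 0 and 4 in the same order of comparisons. The shares of all genes called at these thresholds are not given here, so the counts show only how the calls depend on the threshold. In spermine NONOate against control 1 gene was called, in place of 2, under total counts, upper quartile scaling, totals without the 50 most abundant genes, or with 100 reads needed. The median log2 ratio of the 43 genes in thalidomide against control was 0.27 with total counts and 0.16 without the 50 most abundant genes. In the combination against control these medians were 0.61 and 0.51, and against spermine NONOate 0.62 and 0.53.

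Ratios less the median of the long mRNAs, an alternative chosen after seeing the data, gave medians of -0.9964 in thalidomide against control, 0.055 in spermine NONOate against control, -0.56 in the combination against control, 0.33 against thalidomide and -0.73 against spermine NONOate. In thalidomide against control 21 genes were then called, all lower, and in spermine NONOate against control 1, higher. The combination had 17 called against control and 19 against spermine NONOate, all lower. The median subtracted was 1.06 in thalidomide against control, and 0.94 and 1.19 in the combination against control and against spermine NONOate. Subtracting it lowers every gene of the table alike in these comparisons. The share of all genes then called is not given here. These counts of lower genes thus show how calls depend on the shift, not a decrease particular to these genes. In the combination against spermine NONOate COL5A1 (-0.18), COL4A5 (-0.13), COL6A3 (-0.021) and SOX9 (-0.10) turned from higher to below 0. The cause was not tested. Genes with few reads, IBSP, COL28A1 and MATN3, have the widest counting intervals.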
